A study of Nicotiana tabacum with 36 samples.

Results

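The gene models described here were graded over the plant body, with the highest transcript level in the root, an intermediate level in the shoot and the lowest in the shoot apex. They comprised 200 of the 69500 predicted gene models of the tobacco (Nicotiana tabacum) assembly. Membership was decided on median TPM (a relative transcript abundance scaled for model length and depth within each library) over 12 Root, 12 Shoot and 12 ShootApex libraries. A model needed a Root median of at least 10 TPM, a Root to Shoot ratio from 2 to under 4 and a Shoot to ShootApex ratio of at least 2, with 0.1 TPM added to each median. There were 412 models past these thresholds, and the 200 with the highest Root to ShootApex ratio were taken. The tissue differences are therefore described below and not tested, whereas differences between time-points were not used in the choice and were tested.

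All libraries came from cv. K326, a tobacco cultivar, from plants 56 days old grown in long days of 18 h light and 6 h dark, with no other treatment. Root, Shoot and ShootApex were harvested at 4 time-points named by zeitgeber time, the hours on the light cycle's clock (ZT0, ZT6, ZT12 and ZT18). Each of the 12 groups held 3 replicates, so there were 36 libraries in all. Total expected counts ranged from 4125090 to 21265992 per library. The library Shoot_ZT6 replicate 1 stood apart, with 4438627 counts, a TMM scaling factor of 0.298 and a summed level of the graded models of 540 TPM, whereas each of the other Shoot libraries reached at least 3517 TPM.

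Roots take up water and mineral nutrients and carry specialised metabolism that is active mainly below ground, while a whole shoot combines leaves and stem with their vascular tissue, and the shoot apex is largely dividing and little-differentiated tissue. In bulk samples fewer cells of a type and less RNA per cell cannot be told apart. Tobacco is an allotetraploid, so many of its genes exist as pairs of closely related copies, and the level of a model with a near-identical copy is uncertain because reads can be shared between the copies. The model identifiers were paired with no gene names here, so functions are not given and the tissue labels were not checked against marker genes. The number before the g in an identifier is the scaffold, and the number after it gives the order along that scaffold.

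The graded models spanned a wide range of levels. The Root median ran from 10.04 to 2212 TPM, with 27.4 TPM for the middle model, and 22 models had at least 100 TPM whereas 75 had less than 20 TPM. In Shoot the medians ran from 2.60 to 1004 TPM, with 8.68 TPM in the middle. ShootApex medians lay between 0.05 and 85.3 TPM, with 1.27 TPM in the middle, and 80 models were under 1 TPM there whereas 20 had at least 5 TPM. An apex library at 0 was listed for 37 of the 200 models, and no model was at 0 in more than 4 of the 12 apex libraries.

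The lower step of the gradient was wider than the upper step in most models. Root exceeded Shoot by a median ratio of 2.91, and Shoot exceeded ShootApex by a median ratio of 6.14, with a range from 2.51 to 71.5. The Shoot to ShootApex ratio was above the Root to Shoot ratio in 187 of the 200 models and reached at least 10 in 58 of them. Since the rule held the upper step under 4 and ranked on the product of both steps, this imbalance follows in part from the choice of models. The Root to ShootApex ratio ran from 9.55 to 201, with a median of 17.8.

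**Figure D1:**
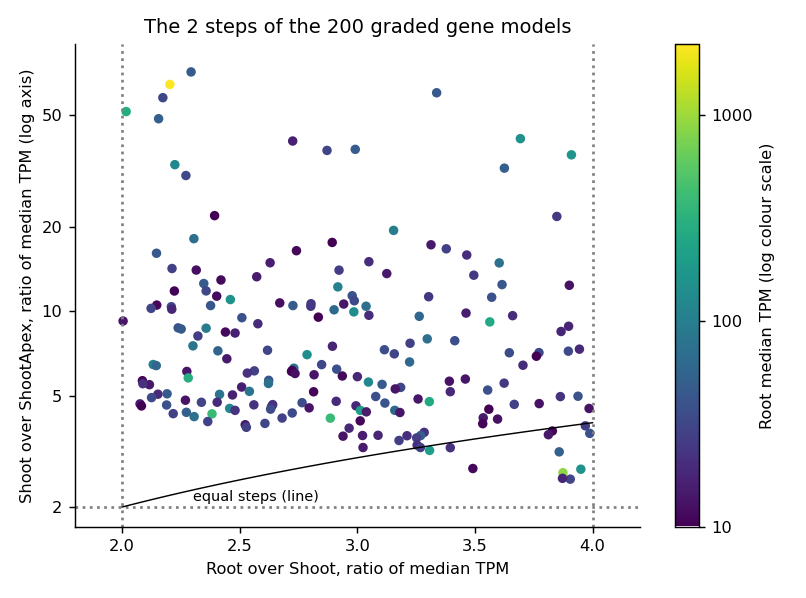
Each point is 1 of the 200 graded gene models, with the Root over Shoot ratio of median TPM on the x axis, the Shoot over ShootApex ratio on a log y axis and the Root median as colour. Dotted lines mark the thresholds of the rule and the solid line marks equal steps, above which 187 models lie.

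At the thresholds the members passed into non-members without a gap. The last 3 models taken had Root to ShootApex ratios of 9.56 (Nitab4.5_0000649g0090.1), 9.55 (Nitab4.5_0001614g0180.1) and 9.55 (Nitab4.5_0003002g0030.1), and the first 3 left out had 9.53 (Nitab4.5_0000555g0150.1), 9.52 (Nitab4.5_0007285g0040.1) and 9.49 (Nitab4.5_0000269g0190.1). The lowest Root median among members was 10.04 TPM in Nitab4.5_0012015g0040.1, and the nearest model under it was Nitab4.5_0003968g0030.1 with 9.80 TPM. Around the lower limit of the Root to Shoot ratio stood Nitab4.5_0000731g0010.1 at 2.004, inside, and Nitab4.5_0000316g0130.1 at 1.997, outside. Around the upper limit stood Nitab4.5_0005150g0030.1 at 3.99, inside, and Nitab4.5_0003317g0010.1 at 4.03, outside. The lowest Shoot to ShootApex ratio taken, 2.51 in Nitab4.5_0001962g0080.1, lay above its limit because the ranking removed models with a smaller lower step.

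Nitab4.5_0000132g0260.1 had the widest gradient. It ranged from 29.2 to 67.0 TPM in Root with a median of 44.2 TPM, from 1.9 to 20.9 TPM in Shoot with a median of 13.2 TPM, and from 0 to 1.91 TPM in ShootApex with a median of 0.120 TPM. Every Root library was above every Shoot library, while the lowest Shoot library, Shoot_ZT6 replicate 1, fell just under the highest apex library. Nitab4.5_0007442g0020.1 (rank 3) was apart in all 3 tissues, with 102 to 213 TPM in Root (median 158.6), 5.49 to 56.9 TPM in Shoot (median 42.9) and 0.140 to 3.91 TPM in ShootApex (median 0.940). Nitab4.5_0003823g0060.1 was likewise apart in all tissues, at 24.8 to 44.4 TPM in Root (median 31.3), 1.37 to 20.4 TPM in Shoot (median 14.4) and 0 to 0.520 TPM in ShootApex (median 0.150). No difference between time-points was called for Nitab4.5_0007442g0020.1 or Nitab4.5_0003823g0060.1 in any tissue.

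The models of ranks 2 and 8, Nitab4.5_0000164g0180.1 and Nitab4.5_0005385g0020.1, gave a different picture. In Root, Nitab4.5_0000164g0180.1 spread from 15.2 to 171 TPM around a median of 46.6 TPM, and Nitab4.5_0005385g0020.1 from 11.5 to 192 TPM around 48.0 TPM. Root and Shoot overlapped in both models, and the same Root libraries were high in both: Root_ZT18 replicate 3 held the highest value of each, followed in Nitab4.5_0000164g0180.1 by Root_ZT12 replicate 3 at 157 TPM, where Nitab4.5_0005385g0020.1 had 162 TPM. Over the 12 Root libraries their log2 levels correlated at 0.98 by Pearson, with group means not removed. After removal of group means the correlation over all 36 libraries was lower, at 0.71. Their lengths were 753 and 762 bases. This comparison was chosen after the values were seen, and the sequences needed to tell whether they are copies of one gene were not used here. In ShootApex both stayed under 1 TPM, with highest values of 0.520 TPM for Nitab4.5_0000164g0180.1 and 0.770 TPM for Nitab4.5_0005385g0020.1.

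Nitab4.5_0000309g0200.1, rank 4, was by far the most abundant of the graded models. It gave 386 to 6236 TPM in Root (median 2212), 94.2 to 7846 TPM in Shoot (median 1004) and 3.43 to 172 TPM in ShootApex (median 15.5). Root and Shoot overlapped over most of their ranges, since the highest library of all was Shoot_ZT18 replicate 3, and replicates of a single group differed widely: Root_ZT0 gave 5825, 5410 and 680 TPM and Shoot_ZT0 gave 3501, 2692 and 146 TPM. No difference between time-points passed the test in any tissue for this model of 333 bases (edgeR adjusted p = 0.858 in Root, 0.0997 in Shoot and 0.148 in ShootApex).

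Because of this single model the summed level of the 200 models has to be read with and without it. It held up to 38.9% of the summed TPM of a Root library, up to 58.8% in Shoot and up to 17.7% in ShootApex. With it the sums ran from 9329 to 18220 TPM in Root, 540 to 13330 TPM in Shoot and 454 to 1230 TPM in ShootApex, so that the highest Shoot library lay above the lowest Root libraries. Without it they ran from 8687 to 13060 TPM in Root, 446 to 5488 TPM in Shoot and 444 to 1198 TPM in ShootApex. Root and Shoot then no longer overlapped, and only Shoot_ZT6 replicate 1 lay within the apex range, with the next lowest Shoot library at 3052 TPM. As a share of all counts, the graded models took a median of 1.23% in Root, 0.606% in Shoot and 0.0910% in ShootApex libraries.

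**Figure D2:**
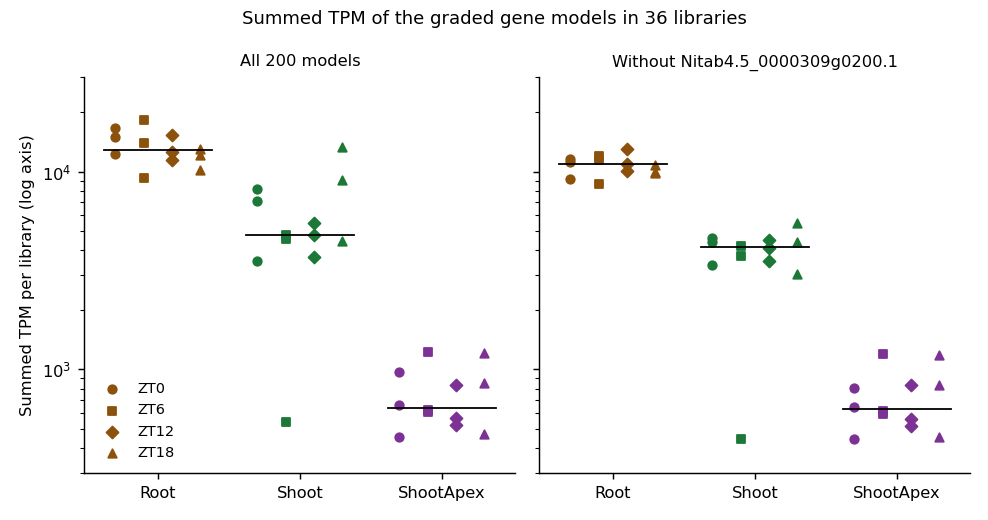
Summed TPM of the 200 graded models per library on a log axis, by tissue with marker shape giving the time-point and the black line the median of the 12 libraries of a tissue (left, all models; right, without Nitab4.5_0000309g0200.1). Without that model the 12 Root libraries (8687 to 13060 TPM) all lie above the 12 Shoot libraries, and the lone Shoot point among the apex points, at 446 TPM, is Shoot_ZT6 replicate 1.

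Behind Nitab4.5_0000309g0200.1, the models with the highest Root medians mostly had a lower step under the median of 6.14. Nitab4.5_0004314g0010.1 had 499 to 1865 TPM in Root (median 878), 23.2 to 450 TPM in Shoot (median 226) and 54.0 to 174 TPM in ShootApex (median 85.3), the highest apex level of the 200. Its Root libraries were all above its Shoot libraries, and Shoot overlapped ShootApex through Shoot_ZT6 replicate 1 and 3 libraries between 141 and 153 TPM. Nitab4.5_0000306g0370.1 gave 158 to 570 TPM in Root (median 386), 12.3 to 230 TPM in Shoot (median 134) and 24.1 to 47.6 TPM in ShootApex (median 32.1). Its 3 ranges met only at their edges, Root and Shoot through 1 low Root library (Root_ZT18 replicate 1) and Shoot and ShootApex through 2 low Shoot libraries. Nitab4.5_0004529g0010.1, with 159 to 650 TPM in Root (median 259), 7.65 to 139.7 TPM in Shoot (median 72.7) and 3.8 to 14.9 TPM in ShootApex (median 7.84), kept Root apart from Shoot in every library. The remaining models of this group are the long models described further on, Nitab4.5_0010919g0010.1 and the time-dependent Nitab4.5_0000985g0020.1.

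The gradient was visible in single libraries mostly at its ends. Every Root library was above every ShootApex library in 188 of the 200 models, against 15.3% of all 44594 models tested. Every Root library was above every Shoot library in 59 members (10.2% of all models tested), and every Shoot library was above every ShootApex library in 8 members (0.482% of all models tested). The rule chose on the same values, so these counts describe the members and are not a result about them. The count of 8 rested on Shoot_ZT6 replicate 1: without that library it was 109, and the share over all models tested also rose, to 3.01%. Without the 5 libraries that the study lists with a low share of mapped reads, Shoot_ZT6 replicate 1 among them, it was 129, against 6.05%. Of these 5, Root_ZT18 replicate 2 was not low in the deposited counts, with 13332241, while the other 4 held 4125090 to 7447374. All 3 tissues were apart in order in 4 members, Nitab4.5_0007442g0020.1, Nitab4.5_0003823g0060.1, Nitab4.5_0006222g0020.1 and Nitab4.5_0005096g0020.1, against 0.114% of all models tested. Without Shoot_ZT6 replicate 1 this held for 36 members, against 0.525% of all models tested.

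The order of the tissues also held within single time-points for most models. By the medians of the 3 replicates, Root was over Shoot and Shoot over ShootApex in 181, 196, 198 and 192 of the 200 models at ZT0, ZT6, ZT12 and ZT18. Shoot exceeded ShootApex in all 200 at each of these 4 times. The exceptions were therefore between Root and Shoot, and the median Root to Shoot ratio of the members was 2.12, 3.30, 3.00 and 3.06 at ZT0, ZT6, ZT12 and ZT18. The Shoot to ShootApex ratio had medians of 8.51, 5.06, 7.88 and 6.53 at the same 4 times. Libraries of all 4 times entered the medians of the rule, so this too is a description.

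Differences between time-points were tested within each tissue by edgeR's quasi-likelihood test over all 44594 models kept by the filter on low counts, which was applied over the libraries of all tissues. All 200 members passed it, also over Root or Shoot libraries alone, whereas over the apex libraries alone 146 passed and 54 did not, so that these 54 entered the apex test through their Root and Shoot counts. In Root, 0 of the 200 members were called at a Benjamini-Hochberg adjusted p under 0.05, against 0.195% of all models tested and 0.106% of models with a Root median of at least 10 TPM. The lowest adjusted p by edgeR was 0.0618, in Nitab4.5_0001821g0060.1. At an unadjusted edgeR p under 0.05 there were 35 members (17.5%), against 8.12% of all models tested. DESeq2 called 7 members while limma-trend called 0 or 1 depending on the pseudocount. For these tools, and for the following fits without single libraries, no share over all models is given. Leaving out Root_ZT18 replicate 1 gave 9 called members, leaving out ShootApex_ZT18 replicate 2 gave 2, and leaving out Root_ZT0 replicate 1 or 3, Root_ZT6 replicate 1, Shoot_ZT12 replicate 1, ShootApex_ZT12 replicate 1 or ShootApex_ZT18 replicate 1 gave 1.

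In Shoot, 27 members (13.5%) were called between time-points, against 8.02% of all models tested and 7.1% of those with a Root median of at least 10 TPM. In ShootApex the count was also 27 members (13.5%), against 5.39% of all models tested and 5.69% of those with a Root median of at least 10 TPM. Of these 27, 25 were among the 146 members that passed the filter over apex libraries alone (17.1%), against 5.88% of all models that passed it. The other 2 were among the 54 members that did not pass. A fit of the apex libraries alone called 8 of the 146 members (5.48%), against 3.58% of all 39368 models it tested. The members called in both tissues numbered 10 of 200, against 1420 of all 44594 models tested. Without Shoot_ZT12 replicate 2 the Shoot count was 17, and the counts also moved with the tool and its input. DESeq2 on counts called 37 members in Shoot and 38 in ShootApex, while limma-trend on log2(TPM + 0.1) called 7 and 2, and on log2(TPM + 1) 17 and 1. The shares of all models called by these other fits are not given, so the members were not set against them there. For comparison, of 200 models chosen by the mirrored rule (ShootApex over Shoot over Root) 46 were called in Shoot and 32 in ShootApex, and of 200 models with a steeper upper step (Root at least 4 times Shoot) 19 were called in Shoot and 1 in ShootApex. These differences between lists were not tested.

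A difference of time course between the tissues, tested as an interaction of tissue and time-point, was called for 11 members (5.50%), against 1.97% of all models tested and 2.17% of those with a Root median of at least 10 TPM. Of these, 7 were also called in Shoot and 9 in ShootApex. No share over all models is given for these 2 counts, so they are not read as a trait of the members. The interaction count fell to 6 without Root_ZT6 replicate 2 or Root_ZT6 replicate 3, and to 7 without any one of Root_ZT0 replicates 2 and 3, Root_ZT12 replicates 1 and 2, Root_ZT18 replicate 3, Shoot_ZT0 replicate 2, Shoot_ZT6 replicates 1 and 3, Shoot_ZT18 replicate 3, ShootApex_ZT0 replicate 1, ShootApex_ZT6 replicate 1 and ShootApex_ZT12 replicate 3. It was 1 by limma-trend on log2(TPM + 0.1), and the 5 interaction calls with the lowest adjusted p were each lost when replicate 1, 2 or 3 was left out of every group.

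**Figure D3:**
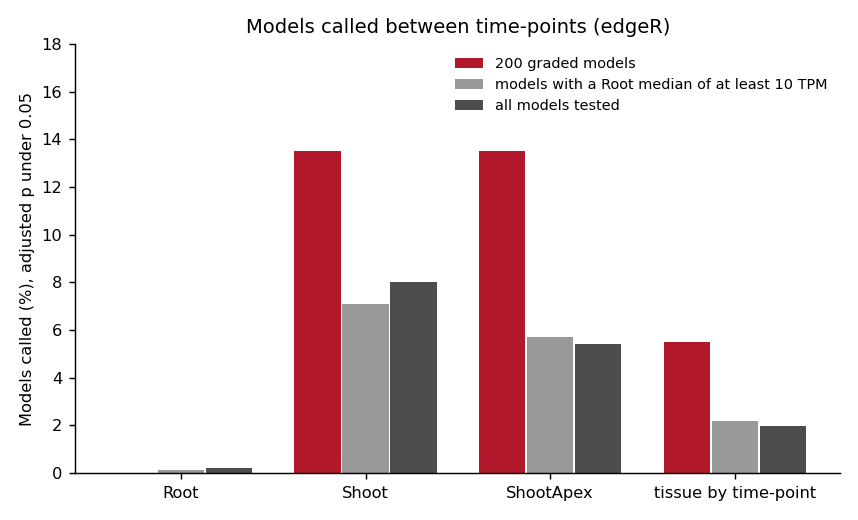
Bars give the percentage of models called between time-points by edgeR (adjusted p under 0.05) in Root, Shoot and ShootApex and for the interaction of tissue and time-point, for the 200 graded models, for models with a Root median of at least 10 TPM and for all models tested. The graded models stand at 0% in Root, 13.5% in Shoot and in ShootApex and 5.5% for the interaction.

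The members called in Shoot peaked most often at ZT18, which falls at the change from light to dark under this photoperiod. By fitted group means, 12 of the 27 (44.4%) had their highest level at ZT18, against 16.0% of all 3578 models called in Shoot, 7 peaked at ZT0, 5 at ZT6 and 3 at ZT12. Over all 200 members, called or not, ZT0 was the most frequent peak in Shoot, with 83 members (41.5%), and ZT18 followed with 69 (34.5%). Over all models tested ZT0 was the most frequent Shoot peak as well, with 30.3%, and ZT18 had 24.0%. In ShootApex 13 of the 27 called members peaked at ZT0 (48.1%), against 43.3% of all models called there, 7 at ZT6, 2 at ZT12 and 5 at ZT18 (18.5% against 4.91%). The lowest level was at ZT12 for 14 of the 27 members called in ShootApex (51.9%), against 34.5% of all models called there. The median range between the highest and the lowest time-point was 2.37 on the log2 scale for the members called in Shoot and 2.26 for those called in ShootApex. No test was made of the spread of peak times over the called members.

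Nitab4.5_0001821g0060.1 had the widest range between time-points in Shoot among the named models. At ZT18 its Shoot libraries gave 613, 191 and 317 TPM, whereas the 9 Shoot libraries of the other times lay between 2.36 and 22.5 TPM. All 3 ZT18 libraries were above every other Shoot library, and the fitted log2 difference of ZT18 from ZT0 was 5.05 (SE 1.02, edgeR adjusted p = 3.37e-05 over the 4 times). ShootApex behaved alike, with 225, 20.1 and 43.4 TPM at ZT18 and 0.630 to 7.94 TPM at the other times, without overlap (log2 difference 4.59, SE 1.01, edgeR adjusted p = 0.000128). In Root the highest values were instead at ZT6, where the replicates gave 55.1, 1256 and 387 TPM, against 15.3 to 187 TPM at the other times, and the groups overlapped (edgeR adjusted p = 0.0618). The time courses differed between tissues (interaction, edgeR adjusted p = 0.00829), a call that was lost without the 5 low-mapped libraries. At ZT18 the order of the rule was broken in this model, with Shoot above the 88.5, 15.3 and 51.2 TPM of Root.

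Nitab4.5_0007055g0020.1 also had its highest Shoot level at ZT18. Its Shoot libraries gave 70.3, 18.6 and 77.7 TPM there, against 1.34 to 15.4 TPM at the other times, and the ZT18 libraries did not overlap the rest. The log2 difference of ZT18 from ZT0 was 2.47 in Shoot (SE 0.42, edgeR adjusted p = 1.30e-05 over the 4 times) and 1.15 in ShootApex (SE 0.42, edgeR adjusted p = 0.00278). Root was even over time, at 27.0 to 52.2 TPM (edgeR adjusted p = 0.856), and the tissues differed in their time course (interaction, edgeR adjusted p = 0.00550). Nitab4.5_0012947g0010.1 gave 45.1, 14.3 and 81.1 TPM in Shoot at ZT18 and 1.78 to 22.5 TPM at the other times, so that its ZT18 libraries overlapped those of ZT12. Its Shoot call (log2 difference of ZT18 from ZT0 2.56, SE 0.47, edgeR adjusted p = 0.000417) was lost when replicate 3 was left out of every group, with an adjusted p of 0.208.

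Another set of called members had its highest level at ZT6. Nitab4.5_0005092g0020.1 gave 5.55, 60.6 and 39.5 TPM in Shoot at ZT6, against 2.66 to 22.9 TPM at the other times. The first of these values is that of Shoot_ZT6 replicate 1, and the other ZT6 libraries were above all the rest (log2 difference of ZT6 from ZT0 3.04, SE 0.45, edgeR adjusted p = 3.12e-05). In ShootApex the same model gave 5.81, 3.84 and 1.34 TPM at ZT6 and 0.340 to 1.64 TPM at the other times, with overlap through 1 ZT6 library (log2 difference 2.53, SE 0.47, edgeR adjusted p = 0.000338). Nitab4.5_0002556g0060.1 gave 2.07, 23.3 and 27.3 TPM in Shoot at ZT6 and 2.60 to 16.1 TPM at the other times (log2 difference 1.5, SE 0.26, edgeR adjusted p = 2.98e-05), while its apex values of 0.720 to 2.88 TPM gave no call (edgeR adjusted p = 0.831). Here too only Shoot_ZT6 replicate 1 lay among or under the other libraries. Under limma-trend on log2(TPM + 0.1) the Shoot calls of both models were lost, with an adjusted p of 0.0813 for Nitab4.5_0005092g0020.1 and up to 0.361 over both pseudocounts for Nitab4.5_0002556g0060.1.

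Nitab4.5_0000985g0020.1 and Nitab4.5_0000555g0140.1 were highest at ZT6 in ShootApex. Nitab4.5_0000985g0020.1 gave 93.2, 54.5 and 33.7 TPM at ZT6 and 6.46 to 23.1 TPM at the other times, with no overlap (log2 difference of ZT6 from ZT0 1.65, SE 0.41, edgeR adjusted p = 0.000157). Its Root level, 128 to 368 TPM with a median of 268 TPM, was more than an order of magnitude above the apex median of 16.9 TPM. Nitab4.5_0000555g0140.1 gave 15.4, 5.75 and 2.08 TPM in ShootApex at ZT6 and 0.2 to 1.98 TPM at the other times, again without overlap (log2 difference 2.59, SE 0.59, edgeR adjusted p = 0.000228). Both calls were lost when replicate 2 was left out of every group and under limma-trend.

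Lower levels at ZT12 marked a further set of members called in ShootApex. Nitab4.5_0000766g0070.1 had the lowest adjusted p there, with 0.900, 0.740 and 0.440 TPM at ZT12, against 0.960 to 5.45 TPM at the other times, without overlap (log2 difference of ZT12 from ZT0 -2.84, SE 0.31, edgeR adjusted p = 1.85e-06). In Shoot it gave 7.14, 7.38 and 6.90 TPM at ZT12, and every other Shoot library except Shoot_ZT6 replicate 1 had at least 11.1 TPM (log2 difference -1.36, SE 0.28, edgeR adjusted p = 0.00207). In Root, at 27.3 to 56.7 TPM, no difference was called (edgeR adjusted p = 0.872), and the interaction was called at an edgeR adjusted p of 0.00208. Its apex call was lost under limma-trend on log2(TPM + 1), with an adjusted p of 0.136. Nitab4.5_0003179g0030.1 gave 1.26, 1.5 and 1.35 TPM in ShootApex at ZT12, below all other apex libraries, which held 2.48 to 14.0 TPM (log2 difference -2.74, SE 0.41, edgeR adjusted p = 0.000212), a call lost without replicate 1 and under limma-trend. Nitab4.5_0000427g0010.1 went the opposite way, with 1.44, 1.74 and 1.28 TPM in ShootApex at ZT12, above the 0.240 to 1.06 TPM of the other times (log2 difference 1.9, SE 0.39, edgeR adjusted p = 0.00175).

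**Figure D4:**
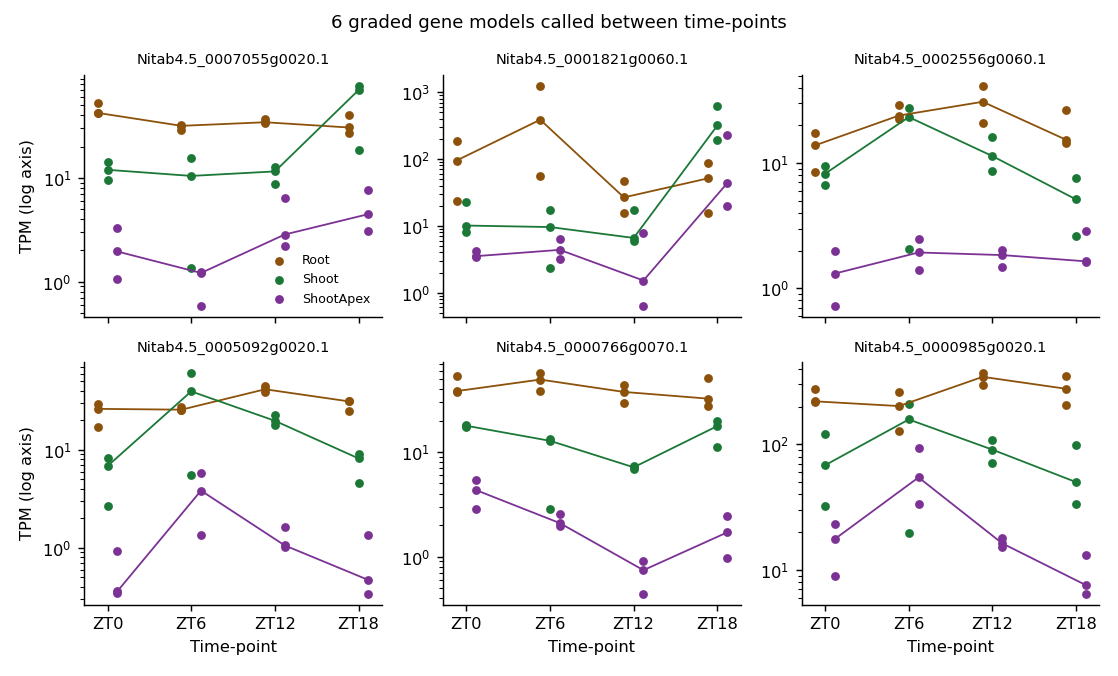
TPM on a log axis by time-point for 6 graded models called between time-points, with 1 point per library and lines through the median of the 3 replicates for Root, Shoot and ShootApex. Nitab4.5_0001821g0060.1 is highest at ZT18 in Shoot and ShootApex and at ZT6 in Root, and Nitab4.5_0000766g0070.1 is lowest at ZT12 in ShootApex.

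Length was not part of the rule. The members had a median length of 1074 bases (243 to 5151 bases), against 1152 bases for all models tested, 1251 bases for models with a Root median of at least 10 TPM, 881 bases for the mirrored list and 834.5 bases for the list with the steeper upper step. The shortest member, Nitab4.5_0005074g0010.1 with 243 bases, varied strongly in Root, from 16.6 to 106 TPM with a median of 32.8 TPM. The longest, Nitab4.5_0000131g0120.1 with 5151 bases, gave 7.39 to 44.1 TPM in Root (median 21.5), 0.760 to 14.5 TPM in Shoot (median 6.47) and 1.14 to 4.99 TPM in ShootApex (median 1.68).

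The long members varied together from library to library. For each library the mean inverse length of the models that its counts fell on was computed (per kilobase), which was 0.647 to 0.706 in 13 libraries and 0.763 or more in the other 23, so that libraries differed in how much of their counts went to long models. After removal of group means, the TMM-scaled level of the 11 members of 3000 bases or more correlated with this measure at a median of 0.79 by Pearson over 34 libraries (Shoot_ZT6 replicate 1 and Shoot_ZT18 replicate 2, the extremes of the measure, left out), positive values meaning a higher level where counts fell on longer models. The median correlation was 0.61 for the 15 members of 2000 to under 3000 bases, 0.30 for the 84 of 1000 to under 2000 bases and -0.0014 for the 90 under 1000 bases. All models tested showed the same order, with medians of 0.84, 0.82, 0.54 and -0.015 for the same length classes. These values are descriptions, since libraries were shared by all models and counts of long models entered the measure itself. The part of this measure in the time-point calls was examined only by adding the 2 classes of libraries to the fit. That fit called 43 members in Shoot and 37 in ShootApex, against 27 in each by the main fit. The share of all models called by that fit is not given, so this rise is not a result about the members or their length.

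Nitab4.5_0000306g0200.1 and Nitab4.5_0002205g0010.1, of 4480 and 4462 bases, had the highest correlation of all 19900 pairs of members, 0.987 over 36 libraries after removal of group means. In Root Nitab4.5_0000306g0200.1 gave 116 to 424 TPM (median 292) and Nitab4.5_0002205g0010.1 gave 124 to 511 TPM (median 387). In Shoot they gave 24.1 to 315 TPM (median 128) and 35.1 to 423 TPM (median 162), and in ShootApex 3.36 to 104 TPM (median 22.1) and 6.34 to 156 TPM (median 37.7), in the same order of models. Both were high in the apex in the same 2 libraries, ShootApex_ZT6 replicate 1 and ShootApex_ZT18 replicate 3, which are among the 13 libraries with counts on longer models. In both models Root overlapped Shoot and Shoot overlapped ShootApex, and no difference between time-points was called for either of them. Nitab4.5_0014089g0010.1 and Nitab4.5_0002315g0180.1, of 3730 and 3738 bases, followed Nitab4.5_0002205g0010.1 at 0.951 and 0.954, the second of them at a much lower level, with a Root median of 12.9 TPM.

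**Figure D5:**
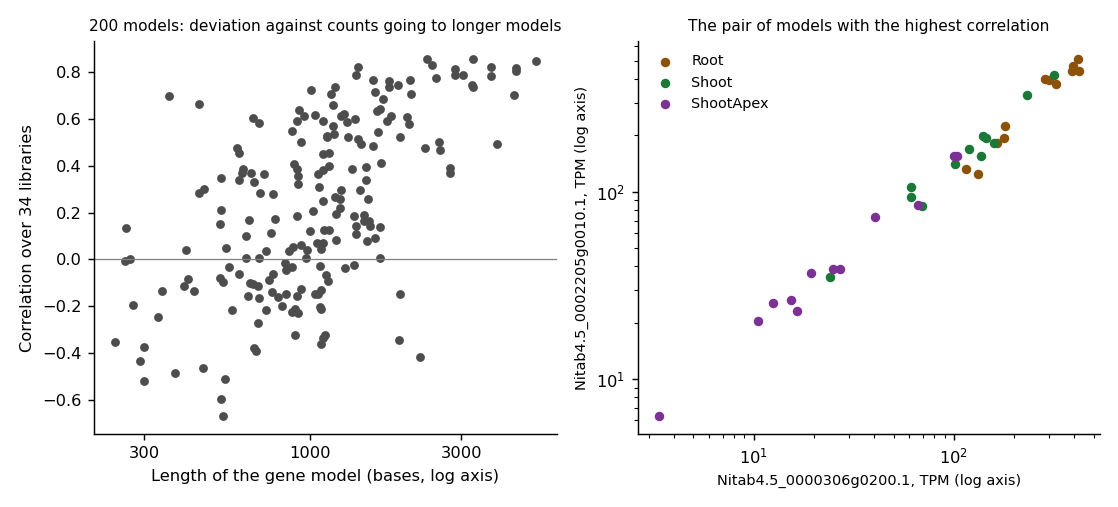
Left, the length of each of the 200 models (log axis) against the Pearson correlation of its deviation from the group means with how far the counts of a library fell on longer models, over 34 libraries; the 11 models of 3000 bases or more have a median of 0.79. Right, TPM of Nitab4.5_0002205g0010.1 against Nitab4.5_0000306g0200.1 on log axes in the 36 libraries, coloured by tissue, where the points lie along 1 line over all tissues.

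High correlations were also found between shorter members. Nitab4.5_0010919g0010.1 (1419 bases) and Nitab4.5_0001086g0030.1 (1310 bases) correlated at 0.957, but this was carried by Shoot (0.968) and ShootApex (0.992), and it was 0.279 in Root. Both were called between time-points in ShootApex (edgeR adjusted p = 0.0307 and 0.0243). For Nitab4.5_0010919g0010.1 the apex values were 14.1, 3.01 and 2.81 TPM at ZT12 and 11.0, 1.85 and 25.8 TPM at ZT18, so replicates of these groups lay far apart, whereas at ZT0 and ZT6 they were 14.6 to 27.4 TPM. Nitab4.5_0002823g0010.1 (878 bases) and Nitab4.5_0000008g0170.1 (913 bases) correlated at 0.948, again with a lower value in Root (0.388) than in Shoot (0.973) and ShootApex (0.957). Over all pairs the median correlation was 0.30, and 295 of the 19900 pairs were above 0.8.

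Between replicates the members varied least in Root, where the rule also required their highest level. Spread was not compared at equal levels, so its order between tissues is a description and not a result about the members. The median SD of the TMM-scaled log2(TPM + 0.1) within groups was 0.48 in Root, 0.71 in Shoot and 0.75 in ShootApex, against 0.51, 0.71 and 0.51 for all models tested in the same tissues. Models with a Root median of at least 10 TPM gave 0.41, 0.63 and 0.45, lower than the members in each tissue and also lowest in Root. Members deviated together more in Shoot than in Root, with mean pair correlations of 0.06 in Root, 0.42 in Shoot and 0.21 in ShootApex, and the Shoot value was 0.25 without the 5 low-mapped libraries. Over all models tested these were 0.06, 0.36 and 0.08 over the full set of libraries. In the apex, ShootApex_ZT6 replicate 1, ShootApex_ZT0 replicate 1 and ShootApex_ZT18 replicate 3 held most members above their group mean, 168, 167 and 149 of 200, while ShootApex_ZT0 replicate 3 held the fewest, 51.

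The members were scattered over the assembly. They stood on 194 scaffolds, of which 6 held 2 members and none held more. On 3 scaffolds the 2 members were next to each other with no model between them. Nitab4.5_0008226g0010.1 and Nitab4.5_0008226g0020.1 had ranks 7 and 10. Nitab4.5_0008226g0010.1 had 36.3 to 113 TPM in Root (median 50.4), 0.560 to 57.6 TPM in Shoot (median 13.8) and 0 to 1.15 TPM in ShootApex (median 0.330), and Nitab4.5_0008226g0020.1 had 17.7 to 64.3 TPM in Root (median 30.1), 0.360 to 48.0 TPM in Shoot (median 10.4) and 0.05 to 1.19 TPM in ShootApex (median 0.180). Both were called between time-points in Shoot (edgeR adjusted p = 0.0405 and 0.0470), with Shoot values at ZT12 of 9.84, 51.1 and 57.6 TPM in Nitab4.5_0008226g0010.1 and 3.69, 36.2 and 48.0 TPM in Nitab4.5_0008226g0020.1, where replicate 1 was low in both.

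Nitab4.5_0002205g0010.1 and its neighbour Nitab4.5_0002205g0020.1 (4462 and 4396 bases) correlated at 0.927 after removal of group means, but differed in the depth of the lower step. Nitab4.5_0002205g0020.1 gave 79.6 to 421 TPM in Root (median 279), 20.8 to 289 TPM in Shoot (median 138) and 0.450 to 21.4 TPM in ShootApex (median 2.58), a Shoot to ShootApex ratio of 51.6, against 4.30 in Nitab4.5_0002205g0010.1. Nitab4.5_0000600g0050.1 and Nitab4.5_0000600g0060.1 (876 and 834 bases) correlated at 0.853, with Root medians of 11.7 and 21.7 TPM and Shoot to ShootApex ratios of 11.3 and 5.51. Neighbours of the members that were not members themselves were ordered Root over Shoot over ShootApex in 69 of 196 cases that passed the filter on low counts (35.2%), against 30.4% of all models tested.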

How the data were processed

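RNA of Root, Shoot and ShootApex of tobacco cv. K326 was sequenced at 4 time-points with 3 replicates, which the study calls biological. Reads were aligned to 69500 predicted models and quantified with RSEM by the authors, who deposited 2 values per model and library. These are the expected count, an estimated and unnormalised number of reads, and the TPM, which the authors scaled by model length and depth. The submitters' processing notes name CASAVA 1.9.4, Bowtie 1.1.0 and RSEM 1.2.7. The deposited table of all libraries held the same expected counts and was not used. RSEM divides reads that fit several models, so counts of near-identical copies are uncertain.

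Groups were taken from the sample labels. Levels and ratios are of the deposited TPM, with a pseudocount of 0.1. For testing, the expected counts were made whole by rounding, filtered by filterByExpr (minimum count 10, minimum total count 15), which kept 44594 models, normalised by TMM and fitted with 12 groups and no replicate block in edgeR 4.0.16 (glmQLFit and glmQLFTest, R 4.3.3). Time-points were compared within each tissue (3 degrees of freedom) and between tissues (6 degrees of freedom), with Benjamini-Hochberg adjustment over all models kept and a threshold of 0.05. The SE of a log2 difference was derived from its F statistic. The procedure was tested on simulated counts, drawn independently with the same spread for every model. They held no models that deviate together and no classes of libraries, so the error rate under those was not examined. DESeq2 1.42.0 and limma 3.58.1 were alternatives, as were other filters, scalings, libraries left out, a replicate block and, chosen after seeing the data, a term for the 2 classes of libraries by length and counts of non-overlapping models without single libraries.

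Named models were the 10 first by rank, the 10 highest in Root, up to 5 with the lowest adjusted p per test, neighbours on a scaffold, those nearest each threshold, the 3 highest and 3 lowest Shoot to ShootApex ratios, the longest and shortest, and the 5 most correlated pairs. The members, lists and tests were chosen with earlier results of these data known. Replicate numbers were checked for pairing: same-numbered libraries of different groups deviated together at a median correlation of -0.011 (-0.73 to 0.65), and 88 of 198 pairs were over 0.1. Most of these pairs joined groups of different time-points, so the check could not tell whether tissues of the same time-point were paired by number. P-values of the main fit rest on the spread between replicates over all 12 groups, not only those of the tissue tested. No sequences or gene names for these models were used here.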

Additional observations from a re-analysis of the deposited data

Results flagged for a closer look

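The time courses of 11 graded models differed between Root, Shoot and ShootApex by the interaction test (edgeR's quasi-likelihood test, Benjamini-Hochberg adjusted over all models). Their adjusted p was 0.00208 for Nitab4.5_0000766g0070.1, 0.00550 for Nitab4.5_0007055g0020.1, 0.00829 for Nitab4.5_0001821g0060.1, 0.0147 for Nitab4.5_0002556g0060.1, 0.0220 for Nitab4.5_0000427g0010.1, 0.0261 for Nitab4.5_0001244g0020.1, 0.0313 for Nitab4.5_0000985g0020.1, 0.0351 for Nitab4.5_0000610g0290.1, 0.0384 for Nitab4.5_0002253g0040.1, 0.0406 for Nitab4.5_0005092g0020.1 and 0.0412 for Nitab4.5_0003179g0030.1. In each case the difference itself was tested. Of 49 alternatives, the call of Nitab4.5_0000427g0010.1 was lost under 12, among them DESeq2, edgeR with a prior dispersion estimate, the fit without the low-mapped libraries, and the fits without ShootApex_ZT0 replicate 1 or 3, Shoot_ZT6 replicate 1 or ShootApex_ZT12 replicate 2. That of Nitab4.5_0002556g0060.1 was lost under 7, among them the fits without the low-mapped libraries and without Shoot_ZT18 replicate 3. The calls of Nitab4.5_0000766g0070.1, Nitab4.5_0007055g0020.1 and Nitab4.5_0001821g0060.1 were lost under 5, 5 and 4. Of the 11 calls, 0 were kept when replicate 1, 2 or 3 was left out of every group, and 2 without the low-mapped libraries. In Nitab4.5_0000766g0070.1, ZT12 differed from ZT0 by -2.84 (SE 0.31) in ShootApex, -1.36 (SE 0.28) in Shoot and -0.22 (SE 0.27) in Root on the log2 scale. In Nitab4.5_0001821g0060.1, ZT18 differed from ZT0 by -1.16 (SE 0.87) in Root, 5.05 (SE 1.02) in Shoot and 4.59 (SE 1.01) in ShootApex. In Nitab4.5_0002556g0060.1, ZT18 differed from ZT0 by 0.44 (SE 0.26) in Root and -0.37 (SE 0.26) in Shoot.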

How the results depend on the processing

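With 3 replicates per group the counts of called members moved with the model. Apart from the fit of the apex libraries alone, no share over all models is given for the alternative fits. Their counts therefore do not show whether the members stood above all models. In Root, 0 members were called by edgeR, against 7 by DESeq2, 1 by limma-trend on log2(TPM + 1), 1 with the length class of the library as a term and 0 to 9 when replicates or libraries were left out. In Shoot, 27 were called, against 7 and 17 by limma-trend with pseudocounts of 0.1 and 1, 16 without the 5 low-mapped libraries, 17 with only Shoot libraries, 43 with the length class and 7 to 29 in the leave-outs. In ShootApex, 27 were called, against 2 and 1 by limma-trend, 23 without the 5 low-mapped libraries and 37 with the length class. With only apex libraries 8 of the 146 members that passed the filter were called, and 7 to 34 in the leave-outs. For the interaction 11 were called, against 22 by DESeq2, 1 by limma-trend with either pseudocount, 2 without the low-mapped libraries, 18 with the length class and 0 to 14 in the leave-outs. The cause of these changes was not tested, except that fewer libraries entered some fits. The replicate block gave 0 members in Root, 25 in Shoot, 24 in ShootApex and 8 for the interaction, and 15 of the 36 libraries deviated most like a library of their own number. Of the 200 members, 72 were taken by the same rule from ZT0 libraries alone, 88 from ZT6, 91 from ZT12 and 82 from ZT18, where medians rest on 3 libraries a tissue, and 173 to 197 when 1 library was left out. Members with every Shoot library above every ShootApex library numbered 8, 129 without the low-mapped libraries and 109 without Shoot_ZT6 replicate 1. The shares over all models tested were 0.482%, 6.05% and 3.01% in the same order.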
